A study of Homo sapiens with 17 samples.

Results

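The transcripts of 9 genes of immune evasion, among the 58870 entries in the deposited table, were followed through a TRAIL time course in MDA-MB-231 cells. They were chosen by symbol: CD274, PDCD1LG2, CD276, VSIR, NT5E, LGALS9, PVR, NECTIN2 and CD47. All 9 matched exactly 1 entry and passed the filter on low counts. MDA-MB-231 is an established human line from a triple-negative breast cancer, labelled here as mesenchymal and basal B. Each of the 17 RNA-seq libraries came from cells labelled as given TRAIL, a death receptor ligand of the TNF family, at 45 nM, which the labels call suboptimal. RNA was taken at 0, 1, 3, 6, 12 and 24 h, with 3 libraries per time and 2 at 1 h. The 0 h libraries carry the treatment label too, and with no later untreated group analysed here, time with TRAIL and time in culture cannot be told apart.

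Immune checkpoint ligands are surface or secreted proteins through which a cell restrains T cells, natural killer cells or macrophages. PD-L1 (CD274) and PD-L2 (PDCD1LG2) bind the receptor PD-1 on T cells, and their genes are known targets of interferon-gamma signalling and, for CD274, of NF-κB. CD155 (PVR) and CD112 (NECTIN2) bind the inhibitory receptor TIGIT and the activating receptor CD226, and CD47 tells macrophages not to engulf the cell. CD73 (NT5E) is an ectoenzyme that makes extracellular adenosine, which dampens T cells through adenosine receptors. B7-H3 (CD276) and VISTA (VSIR) are members of the B7 family, and galectin-9 (LGALS9) is a secreted lectin that binds TIM-3.

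Total counts ran from 13731497 to 19234939 per library. The cells carried markers of the line: VIM stood at 3350 CPM (counts scaled to library size) at 0 h and CD44 at 1320, with all 8 mesenchymal markers tested and SPARC lowest at 0.682 CPM. Of 10 luminal or epithelial markers 7 were tested, with KRT8 at 1040, KRT18 at 743, KRT19 at 441, ERBB2 at 64.4, EPCAM at 17.7, GATA3 at 10.5 and CDH1 at 0.477 CPM at 0 h, and ESR1, PGR and FOXA1 had at most 2, 1 and 1 counts in a library. Of 15 immune cell markers, 9 had at most 3 counts in every library, with CD3E, CD4 and CSF3R at 0 throughout and PTPRC, the pan-leukocyte marker, at most 5. The 3 that were tested had more: CSF1R 41 to 107 counts per library, CD14 11 to 32 and CD8A 4 to 21. Of 5 endothelial markers 2 were tested, KDR (19 to 73 counts) and PECAM1 (11 to 68). The others, VWF, TEK and CDH5, had at most 5, 5 and 2. A pair of library measures moved with time, and a technical origin and a response of the cells cannot be told apart for either. Mitochondrial counts made up 6.75 ± 1.46% of the 0 h libraries (SD, n = 3) and 8.59 ± 0.521% of the 3 h libraries (n = 3), against 3.9 ± 0.24% of those from 24 h (n = 3). The slope on transcript length was taken for the deviation of each gene's log2 CPM from its own mean over the 17 libraries. Per doubling of length it ran from -0.0636 to -0.0103 at 0 h and from -0.136 to -0.061 at 3 h. At 24 h it ran from 0.0215 to 0.134. Members were therefore also tested after a correction for length and GC content, which takes out such a trend whatever its origin.

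Over the time course 8 of the 9 members changed (edgeR quasi-likelihood F-test over all times, adjusted p below 0.05), where 64.2% of the 15365 genes tested did. LGALS9 was the exception, with adjusted p 0.0804. Against 0 h, CD274 was called higher from 1 h to 12 h, PVR at 3 h and 6 h, and PDCD1LG2 at 6 h. None of these 3 was called at 24 h. The step from 3 h to 6 h was not called for PVR (0.010, adjusted p 0.889) or PDCD1LG2 (0.13, 0.515). VSIR fell and NT5E dipped. CD276 was higher at 24 h. NECTIN2 and CD47 passed the test over all times (adjusted p 0.0235 and 0.00538) without a called difference from 0 h.

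**Figure D1:**
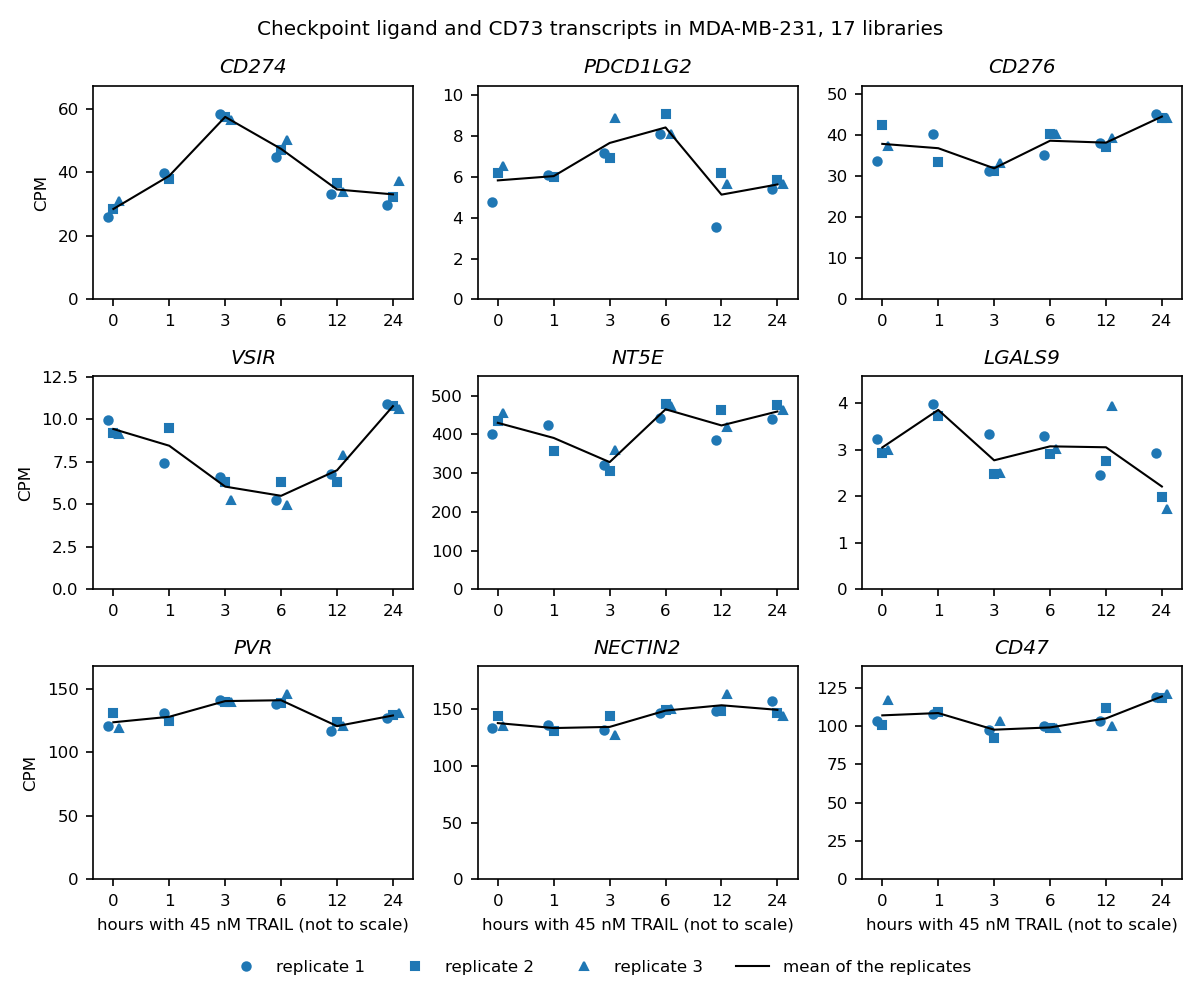
Level in CPM (y axis, from 0) of each member at 0, 1, 3, 6, 12 and 24 h of TRAIL (x axis, evenly spaced), with 1 symbol per library and a line through the means. CD274 peaks at 3 h, between 56.4 and 58.4 CPM, and VSIR is lowest at 3 and 6 h, between 4.96 and 6.6 CPM.

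CD274 had the largest rise of the members. Its promoter is printed for that reason, with that of VSIR, the member with the largest fall. Both are from RefSeq (GRCh38.p14), 5′ to 3′ on the gene's strand, each 300 bases long and reaching just past the annotated start: chr9:5450292-5450591, plus strand, and chr10:71773471-71773770, minus strand. Capitals mark motif matches.
CD274: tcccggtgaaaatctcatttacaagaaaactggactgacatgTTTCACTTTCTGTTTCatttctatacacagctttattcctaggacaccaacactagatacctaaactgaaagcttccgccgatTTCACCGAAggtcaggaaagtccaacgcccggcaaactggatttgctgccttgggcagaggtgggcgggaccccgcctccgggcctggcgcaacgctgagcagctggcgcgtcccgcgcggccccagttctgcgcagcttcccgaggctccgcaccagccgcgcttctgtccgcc
VSIR: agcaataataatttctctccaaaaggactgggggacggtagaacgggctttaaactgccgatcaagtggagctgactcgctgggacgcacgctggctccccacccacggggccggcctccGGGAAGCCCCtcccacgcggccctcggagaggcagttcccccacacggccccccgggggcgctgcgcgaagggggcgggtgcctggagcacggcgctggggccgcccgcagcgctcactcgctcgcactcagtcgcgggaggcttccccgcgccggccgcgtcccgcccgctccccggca

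Motifs were searched on both strands of 35116 such promoters: the NF-κB consensus, the interferon regulatory factor (IRF) motif GAAANNGAAA, the STAT motif TTCNNNGAA and the AP-1 motif TGANTCA. The CD274 promoter held 2 overlapping IRF matches on the minus strand, from 208 to 193 bases before the start, and 1 STAT match from 125 to 117 bases before it. An IRF match occurred in 3.57% of all promoters and a STAT match in 7.66%. The VSIR promoter held 1 site that matched the NF-κB consensus on both strands, as 11.3% of all promoters held at least 1 match. LGALS9 held 1 IRF match at its start, and 1 of the 2 CD276 promoters listed held an NF-κB match on both strands. AP-1 matches, found in 7.71% of all promoters, were seen in none of the 8 members with an entry. A match in these windows is a description of the letters only.

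The protein-coding CD274 gene spans 5450503 to 5470566 of chromosome 9 (GENCODE 29, GRCh38, plus strand), and PDCD1LG2 lies downstream of it from 5510570 to 5571254 on the same strand. CD274 counts ran from 416 to 931 per library, whole numbers in every one. The CD274 level was 25.9, 28.6 and 30.9 CPM in the 0 h libraries, and 39.9 and 37.9 at 1 h. It reached 58.4, 57.5 and 56.4 CPM at 3 h and was 44.9, 47.0 and 50.2 at 6 h. By 12 h it was 33.3, 36.6 and 33.9 CPM, and by 24 h 29.7, 32.3 and 37.2. Every CD274 library from 1 h to 12 h was thus above every 0 h library, and the 24 h libraries overlapped them. In bulk RNA, a change in the number of cells with a transcript and a change in its amount per cell cannot be told apart.

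Against 0 h, CD274 rose 2.02-fold at 3 h (log2 fold change 1.01, SE 0.0827, adjusted p 5.98e-08) and 1.66-fold at 6 h (adjusted p 4.33e-06). Both CD274 calls were made under all 27 alternatives. CD274 was also called at 1 h (0.45, SE 0.0928, adjusted p 0.0349) and at 12 h (0.28, SE 0.0837, adjusted p 0.0315), but not at 24 h (0.21, adjusted p 0.0556). Neighbouring times, compared directly, placed the CD274 maximum at 3 h. It rose between 1 h and 3 h (0.56, adjusted p 0.000683), fell by 0.28 between 3 h and 6 h (0.00832) and fell by 0.45 between 6 h and 12 h (0.000642).

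The 1 h call of CD274 was lost with library size alone (0.404, adjusted p 0.167), with only the groups compared (0.45, 0.0983), and on omitting replicate 1 (0.388, adjusted p 0.167) or 2 (0.454, 0.156) of 0 h, or replicate 1 (0.418, 0.422) or 2 (0.481, 0.22) of 1 h, and narrowly on omitting replicate 1 of 3 h, replicate 2 of 6 h or replicate 2 of 24 h (0.451 each, adjusted p 0.0584, 0.0539 and 0.0519). The 12 h call was lost on omitting replicate 1 (0.214, adjusted p 0.167) or 2 (0.287, 0.0811) of 0 h, or replicate 2 (0.241, 0.147) or 3 (0.299, 0.0547) of 12 h, and CD274 was called at 24 h on omitting replicate 3 of 0 h (0.273, 0.0296) or replicate 1 of 24 h (0.286, 0.014), with library size alone (0.287, 0.0197) and with a replicate block (0.213, 0.0431). Its difference of 6 h from 3 h was not called with library size alone (-0.206, 0.0607).

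PDCD1LG2, the gene of the second PD-1 ligand, was scarcer, with 52 to 150 counts per library. Its level was 4.79, 6.17 and 6.53 CPM at 0 h and 6.08 and 6.0 at 1 h. It was 7.19, 6.91 and 8.89 CPM at 3 h, and 8.09, 9.09 and 8.09 at 6 h. By 12 h PDCD1LG2 stood at 3.57, 6.17 and 5.66 CPM and at 24 h at 5.39, 5.83 and 5.67. The 3 h and 6 h libraries lay above every 0 h library, and the other times overlapped 0 h.

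PDCD1LG2 rose 1.44-fold at 6 h (0.53, SE 0.157, adjusted p 0.0163) and fell by 0.69 from 6 h to 12 h (SE 0.158, adjusted p 0.00431). Its 3 h difference was 0.40 (SE 0.162, adjusted p 0.0967). The 6 h call was lost on omitting replicate 1 of 0 h (0.404, adjusted p 0.0967) or replicate 2 of 6 h (0.472, 0.0684), or with the 6 h replicates 2 and 3 averaged (0.501, 0.065), and the 3 h difference was called without the 12 h replicate 1 (0.398, 0.0437) and under the length and GC correction with a replicate block (0.397, 0.0394).

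Both PD-1 ligand genes lie in one stretch of 9p24. Of 14 genes listed there, 8 were tested. JAK2, upstream of CD274, was called at none of the 5 times against 0 h. RIC1, the next gene after PDCD1LG2, rose at 6 h (0.27, adjusted p 0.0442) and 24 h (0.37, 0.0076), and ERMP1 fell by 0.66 at 3 h (0.0269). Their median difference (log2) at 3 h was -0.0887, and that of all genes tested -0.00407.

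VSIR was the member with the largest fall. It had 73 to 187 counts per library and is a minus-strand gene of chromosome 10 (71747559 to 71773498). The gene overlaps CDH23 on the opposite strand without shared exons, and CDH23 had at most 2 counts. VSIR stood at 9.96, 9.16 and 9.15 CPM at 0 h and at 7.41 and 9.47 at 1 h. At 3 h it was 6.6, 6.29 and 5.23 CPM, and at 6 h 5.24, 6.3 and 4.96. By 12 h VSIR was 6.79, 6.32 and 7.89 CPM, and by 24 h 10.9, 10.8 and 10.6. Libraries at 3, 6 and 12 h were below every 0 h library, and those at 24 h above every one.

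VSIR fell by 0.64 at 3 h (SE 0.13, adjusted p 0.00225), by 0.78 at 6 h (SE 0.128, adjusted p 0.000223) and by 0.43 at 12 h (SE 0.123, adjusted p 0.0268). It then rose 1.54-fold from 12 h to 24 h (0.62, adjusted p 0.00337), to a level whose difference from 0 h was 0.19 (SE 0.118, adjusted p 0.207). The 12 h call was lost on omitting replicate 1 (-0.394, adjusted p 0.0997) or 2 (-0.449, 0.0588) of 0 h, or replicate 1 (-0.418, 0.065) or 2 (-0.355, 0.145) of 12 h. The step from 6 h to 12 h (0.35, adjusted p 0.0629) was called on omitting replicate 2 of 6 h (0.455, 0.0448) or replicate 2 of 12 h (0.426, 0.0483), with library size alone (0.383, 0.0394) and after the length and GC correction (0.437, 0.0112). The difference of 3 h from 1 h (-0.48, 0.0572) was called with library size alone (-0.503, 0.0432) and after the correction (-0.479, 0.0248). VISTA is known mainly from myeloid cells and T cells, and the summed level of the 15 immune markers moved alongside VSIR, at 7.2 to 8 CPM at 0 h, 4.55 to 5.26 at 6 h and 8.81 to 9.81 at 24 h. Within it CSF1R stood at 2.55 to 6.48 CPM over the libraries, whereas PTPRC did not exceed 0.353 CPM. The part of these markers in the VSIR result was not tested.

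CD276, the other B7 family gene, had 402 to 770 counts per library. Its level was 33.7, 42.5 and 37.2 CPM at 0 h and 40.1 and 33.4 at 1 h. It was 31.2, 31.2 and 33.2 CPM at 3 h and 35.2, 40.3 and 40.2 at 6 h. By 12 h CD276 was 38.0, 37.0 and 39.3 CPM and at 24 h 45.1, 44.2 and 44.0. The 3 h libraries were below every 0 h library and the 24 h libraries above every one.

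CD276 was 1.17-fold higher at 24 h than at 0 h (0.23, SE 0.084, adjusted p 0.0372). Between 3 h and 6 h it also rose (0.27, adjusted p 0.0151). At 3 h it differed from 0 h by -0.25 (adjusted p 0.055), a difference called with library size alone (-0.317, 0.0241), without a filter (-0.268, 0.0286), and on omitting replicate 1 of 0 h (-0.32, 0.0186), either library of 1 h (-0.247 and -0.246, 0.0445 and 0.0448) or replicate 1 of 6 h (-0.246, 0.0463). The 24 h call was lost on omitting replicate 1 (0.154, adjusted p 0.209) or 3 (0.217, 0.0876) of 0 h, without any of the 24 h replicates (0.222 to 0.24, 0.07 to 0.0818) with the 24 h replicates 2 and 3 averaged (0.228, 0.0998) and with only the groups compared (0.224, 0.0537). The rise from 3 h to 6 h was lost without the 3 h replicate 1 or 2 (0.257 each, 0.0528 and 0.052) or the 6 h replicate 2 or 3 (0.243 and 0.242, 0.0615 and 0.0672), and with that pair averaged (0.236, 0.0818).

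NT5E, the gene of CD73, was the most abundant member, with 3925 to 9235 counts per library. The gene is on the plus strand of chromosome 6 (85449584 to 85495791). Its level was 400, 434 and 456 CPM at 0 h and 424 and 358 at 1 h. It was 320, 305 and 361 CPM at 3 h and 443, 479 and 473 at 6 h. By 12 h NT5E stood at 387, 463 and 420 CPM and at 24 h at 439, 476 and 463. Only the 3 h libraries did not overlap those at 0 h.

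NT5E fell by 0.39 at 3 h (to 0.764 of its 0 h level, SE 0.0792, adjusted p 0.00241). It rose again between 3 h and 6 h (0.50, SE 0.0792, adjusted p 0.000119). These 2 NT5E calls were made under all 27 alternatives, the correction for length and GC content included (-0.366 and 0.415). At 6, 12 and 24 h the differences of NT5E from 0 h were 0.11, -0.023 and 0.095, with adjusted p from 0.293 to 0.882. The difference of 3 h from 1 h (-0.25, adjusted p 0.104) was called without the 3 h replicate 3 (-0.321, 0.039), without a filter (-0.268, 0.0135) and after the correction (-0.234, 0.0189).

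CD73 works in a chain of enzymes, transporters and receptors, and 12 of 18 listed genes of that chain were tested. Of the 12, NT5E and the nucleoside transporter gene SLC29A1 fell at 3 h, the latter by 0.28 (adjusted p 0.016). At 6 h SLC29A1 rose (0.29, adjusted p 0.00831), as did ENTPD1, whose product CD39 supplies AMP to CD73 (0.31, 0.0465), and SLC29A2 fell by 0.48 (0.00238). At 24 h ENPP1, a pyrophosphatase that yields AMP (0.68, adjusted p 9.2e-07), the adenosine receptor gene ADORA2A (0.80, 0.000181) and ENTPD3 (0.545, 0.0217) were higher, and ADORA2B fell by 0.32 (0.000563). At 12 h ENPP1 was higher (0.35, adjusted p 0.00226) and ADORA2B fell by 0.22 (0.0206). In all, 0 of the 12 rose and 2 fell at 3 h, where 9.04% and 8.71% of all genes tested did. At 6 h 2 rose and 1 fell (16.9% and 13.2%). At 12 h 1 rose and 1 fell (5.96% and 6.48%), and at 24 h 3 rose and 1 fell (18% and 17.1%). The list's median was -0.169 at 3 h and 0.0774 at 24 h, against -0.00407 and -0.00175 for all genes tested.

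PVR and NECTIN2 lie near each other on chromosome 19, from 44643798 to 44663583 and from 44846175 to 44889228, both on the plus strand. PVR had 1706 to 2705 counts per library, which were not whole in 17 of 17 libraries. Its exons overlap those of CEACAM19 on the same strand, which had 29.9 to 96.1 counts, so that a small part of the PVR value is uncertain. PVR stood at 121, 131 and 119 CPM at 0 h and at 131 and 125 at 1 h. It was 141, 140 and 140 CPM at 3 h and 138, 139 and 146 at 6 h. By 12 h PVR was 117, 124 and 121 CPM and at 24 h 127, 129 and 131. The 3 h and 6 h libraries lay above every 0 h library.

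PVR was 1.13-fold higher at 3 h (0.18, SE 0.0517, adjusted p 0.0237) and 1.14-fold higher at 6 h (0.19, SE 0.0514, adjusted p 0.0106). It fell by 0.23 from 6 h to 12 h (SE 0.0514, adjusted p 0.00417), a call made under all 27 alternatives. The 3 h call was lost with library size alone (0.107, adjusted p 0.2), without a filter (0.155, 0.19), with only the groups compared (0.179, 0.07), and on omitting replicate 1 (0.163, 0.0587) or 3 (0.151, 0.108) of 0 h, or replicate 1 (0.176, 0.0638) or 2 (0.179, 0.0541) of 3 h. At 6 h the call was lost without a filter on low counts (0.189, adjusted p 0.0518), on omitting replicate 3 of that time (0.162, 0.065) and with the 6 h replicates 2 and 3 averaged (0.168, 0.0654).

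NECTIN2 had 1770 to 2947 counts per library. It stood at 133, 144 and 135 CPM (0 h), then 136 and 130 (1 h), and 131, 144 and 127 (3 h). Later values were 146, 149 and 150 CPM (6 h), 148, 148 and 163 (12 h), and 157, 146 and 144 (24 h). The 6 h and 12 h libraries were above every 0 h library.

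The NECTIN2 differences from 0 h were 0.11 at 6 h, 0.16 at 12 h and 0.12 at 24 h, with adjusted p of 0.156, 0.0936 and 0.137. After correction for length and GC content they were 0.232, 0.271 and 0.258 (adjusted p 0.00116, 0.000552 and 0.000403), and all 3 were called. With library size alone the 12 h and 24 h differences (0.188 and 0.19, adjusted p 0.0471 and 0.0192) and the step from 3 h to 6 h (0.217, 0.00698) were called. The step from 3 h to 6 h was 0.15 (adjusted p 0.0565) and 0.278 after correction (0.000156), and was called on omitting replicate 2 of 3 h (0.197, 0.0222) or replicate 1 of 24 h (0.145, 0.0459). Elsewhere in the nectin and nectin-like family, NECTIN1 fell by 0.64 at 3 h (adjusted p 0.00044), NECTIN3 fell by 0.33 at 3 h (0.0419), and AFDN, which encodes the nectin-binding protein afadin, rose at 6 h (0.50, 0.000639) and 24 h (0.39, 0.00364). Of the 10 genes in that list 6 were tested, and NECTIN4 had at most 1 count.

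CD47 had 1188 to 2230 counts per library and, with an exon length of 8225 bases and a GC content of 38.4% in its longest transcript, was the longest member and the poorest in GC. Its level was 103, 101 and 117 CPM (0 h), 108 and 109 (1 h), and 97.7, 92.3 and 103 (3 h). It was then 100, 98.7 and 98.7 CPM (6 h), 103, 112 and 100 (12 h), and 119, 118 and 121 (24 h). The 6 h libraries lay below and the 24 h libraries above every 0 h library.

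The direction of CD47 depended on the correction. At 24 h it differed from 0 h by 0.15 (SE 0.0615, adjusted p 0.065) before and by -0.0724 (0.355) after correction for length and GC content. At 6 h the values were -0.12 (adjusted p 0.166) and -0.313 (0.000362), and from 3 h to 6 h 0.0215 (0.804) and -0.266 (0.00117). The 24 h difference was called on omitting replicate 3 of 0 h (0.215, adjusted p 0.0125) and with library size alone (0.224, 0.0136), which also called CD47 lower at 3 h (-0.206, 0.0376). The step from 12 h to 24 h (0.18, adjusted p 0.0617) was called on omitting replicate 3 of 0 h, replicate 2 or 3 of 3 h (0.183 each, adjusted p 0.0376, 0.0468 and 0.045) or replicate 2 of 12 h (0.227, 0.0371), with DESeq2 (0.177, 0.0383) and with library size alone (0.219, 0.0369). The step from 6 h to 12 h (0.085, 0.35) was called after the correction (0.164, 0.0408). Among 7 tested genes of CD47's partners and modifying enzymes, THBS1, a ligand of CD47, rose at 6 h (0.84, adjusted p 0.000301). QPCTL, an enzyme that modifies CD47, fell by 0.24 at 6 h (0.0437). SIRPA, its receptor on macrophages, fell by 0.68 at 24 h (0.00183), and CALR rose at 24 h (0.24, 0.00527).

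**Figure D2:**
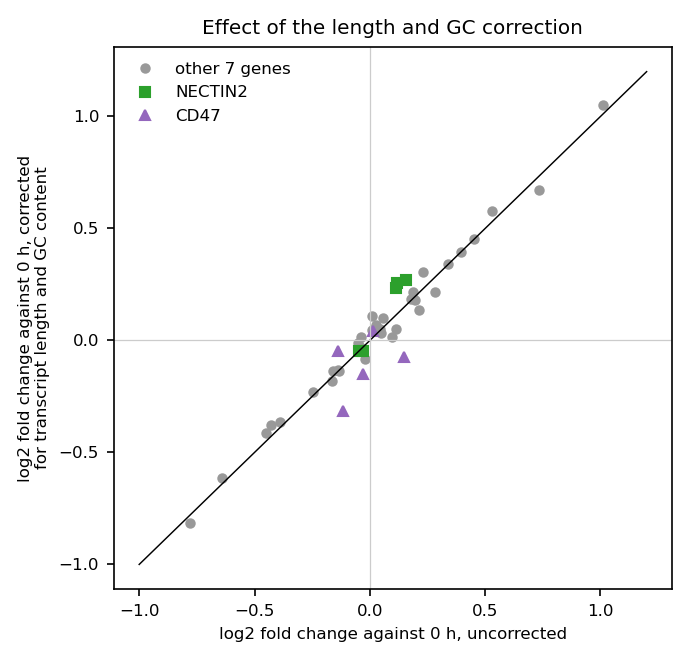
Log2 fold change of each member against 0 h at the 5 later times, before (x axis) and after (y axis) correction for transcript length and GC content, with the line of equality. NECTIN2 (squares) moves up at 3 times, to between 0.232 and 0.271, while CD274 at 3 h stays near the line (1.01 and 1.05). CD47 (triangles) moves down at 6, 12 and 24 h, to -0.313 at 6 h. It moves up at 1 h (0.0152 to 0.04) and 3 h (-0.137 to -0.0467).

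LGALS9 was the scarcest member, with 26 to 71 counts per library, and the spread between its replicates was wide. It stood at 3.24, 2.93 and 2.99 CPM (0 h), 3.99 and 3.73 (1 h), and 3.34, 2.48 and 2.51 (3 h). Later values were 3.29, 2.92 and 3.02 CPM (6 h), 2.47, 2.76 and 3.94 (12 h), and 2.93, 1.98 and 1.73 (24 h). The 1 h libraries lay above every 0 h library and the 24 h libraries below, 1 of them only narrowly.

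No LGALS9 difference was called: the 24 h value was -0.45 (95% interval -0.889 to -0.0119, unadjusted p 0.044, adjusted p 0.1). It was called without the 24 h replicate 1, both against 0 h (-0.709, adjusted p 0.0172) and against 12 h (-0.72, 0.0299). The near-identical copies LGALS9B and LGALS9C had at most 5 and 1 counts. Of 11 galectin genes 5 were tested, and LGALS3 fell at 6, 12 and 24 h by 0.44, 0.25 and 0.60 (adjusted p 0.000454, 0.0394 and 2.41e-05). LGALS1 fell by 0.33 at 6 h (0.0142), and LGALS12 by 0.63 at 3 h (0.0328) and by 1.35 at 6 h (0.000111).

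**Figure D3:**
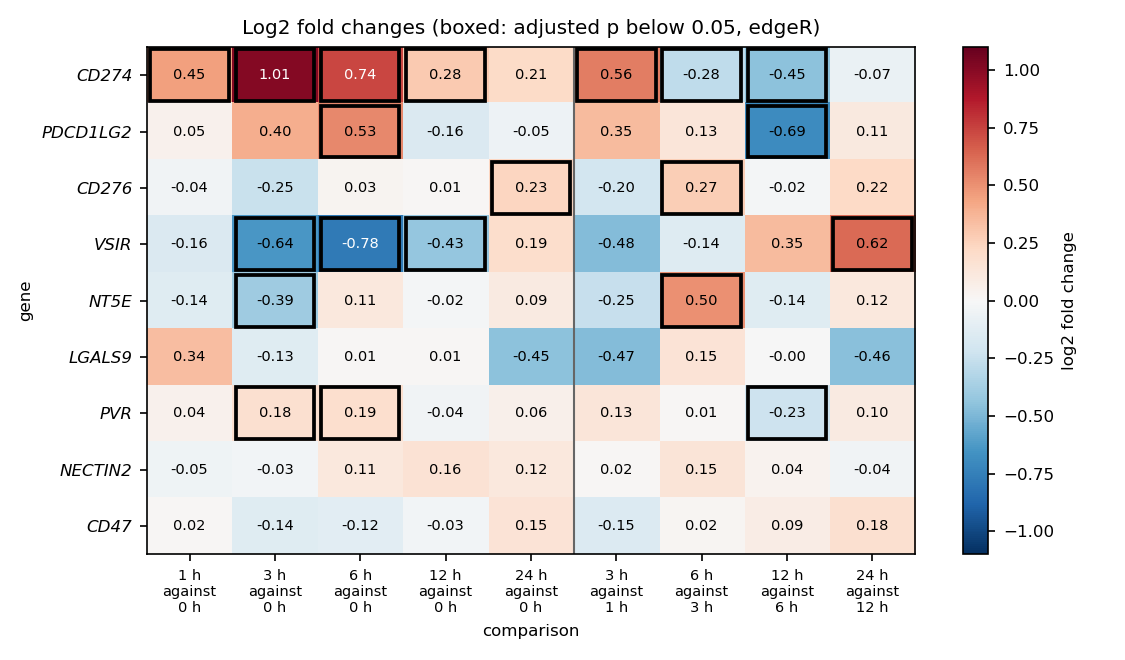
Log2 fold change of the 9 members (rows) in 9 comparisons (columns), with red for higher and blue for lower in the later time. Boxes mark the 20 calls at an adjusted p below 0.05, of which CD274 holds 7 and VSIR 4.

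By comparison, 1 member rose at 1 h and 0 fell, where 0.26% of all genes tested rose and 0.0521% fell. In edgeR 0 members had an unadjusted p below 0.05 with a fall at 1 h, and DESeq2 and limma-voom called 0 as well. At 3 h 2 members rose and 2 fell (9.04% and 8.71% of all genes tested), and at 6 h 3 rose and 1 fell (16.9% and 13.2%). At 12 h 1 rose and 1 fell (5.96% and 6.48%). At 24 h 1 rose and 0 fell (18% and 17.1%), with 3 and 1 members at an unadjusted p below 0.05 in edgeR, and DESeq2 and limma-voom also called 0 lower. The median log2 fold change of the members was -0.134 at 3 h and 0.116 at 24 h, against -0.00407 and -0.00175 for all genes, so the set did not move in one direction.

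Between neighbouring times, 1 member rose from 1 h to 3 h (CD274; 3.17% of all genes rose and 2.56% fell), and edgeR, at 5 members with a lower level at an unadjusted p below 0.05, called 0 lower, as did DESeq2 and limma-voom. From 3 h to 6 h NT5E and CD276 rose and CD274 fell (22.9% and 20.3%). From 6 h to 12 h CD274, PDCD1LG2 and PVR fell, against 11.9% of all genes that fell and 8.7% that rose. From 12 h to 24 h VSIR alone was called, upwards (6.42% rose and 5.6% fell). The 5 comparisons with 0 h share the 0 h libraries and are not independent of each other.

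Levels of different genes were compared per length, as CPM per kb of exon. At 0 h NT5E stood at 94.9 ± 6.27 CPM per kb (SD, n = 3), above 97.1% of all genes tested. NECTIN2 (36.6 ± 1.56) and PVR (35.2 ± 1.85) followed and did not differ beyond their spread. CD47 (13.1 ± 1.07) came next, and CD274 (6.93 ± 0.615) and CD276 (6.83 ± 0.802) overlapped. PDCD1LG2 (2.47 ± 0.389), VSIR (1.84 ± 0.0903) and LGALS9 (0.534 ± 0.0286, above 16.6% of all genes) were lowest and did not overlap each other.

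With the length of the longest transcript in place of summed exons, NECTIN2 stood at 55.7 and PVR at 37.3 CPM per kb, and CD276 at 10.9 and CD274 at 7.81. NECTIN2 was thus above PVR with that length, while with summed exons their 0 h libraries overlapped. The order of the CD274 and CD276 means turned. During the time course CD274 reached up to 14.2 CPM per kb of summed exons, from at most 7.53 at 0 h. At 3 h it stood at 13.7 to 14.2, above CD47 in the same libraries (11.2 to 12.5). Over all libraries CD47 ranged from 11.2 to 14.7, with its highest value at 24 h.

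**Figure D4:**
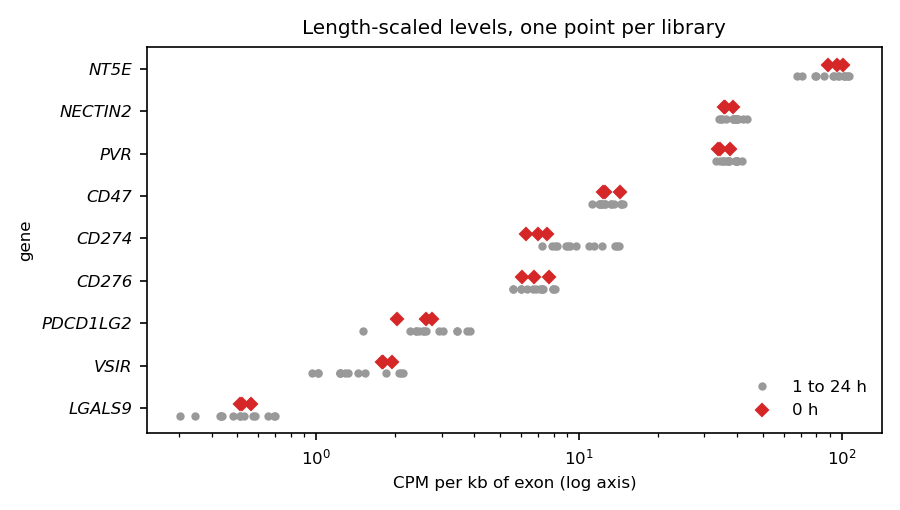
Level in CPM per kb of exon (log axis) of each member, with red diamonds for the 3 libraries at 0 h and grey circles for the 14 later ones. NT5E, at up to 106 CPM per kb, stands far above LGALS9, at most 0.698.

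The genes whose log2 CPM was most like that of a member over the 17 libraries are given as a description, since the points share their time groups and library properties. For CD274 they were TIPARP (Pearson r 0.954), ETS1 (0.923) and IL6 (0.919), and for PDCD1LG2 ZNHIT6 (0.907), GTPBP4 (0.896) and RAD18 (0.894). VSIR was closest to TNS4 (0.937), DPYSL2 (0.917) and JAG2 (0.913). NT5E was closest to STT3B (0.977), TMEM123 (0.973) and APP (0.972), and CD276 to TTC38 (0.955), CAPN1 (0.94) and PGM1 (0.938). PVR was closest to SPECC1 (0.941), PLXNA2 (0.926) and ABTB2 (0.905), NECTIN2 to ORMDL3 (0.929), FAM131A (0.929) and KDM1A (0.87), and CD47 to ATP1B1 (0.926), SQOR (0.925) and ELMOD2 (0.924). Between members, r was 0.698 for CD274 and PDCD1LG2, 0.804 for CD274 and PVR, 0.809 for PDCD1LG2 and PVR, and -0.763 for CD274 and VSIR.

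Genes of NF-κB and interferon signalling and regulators of the PD-L1 protein were read from lists. Of 12 genes of NF-κB subunits and their regulators, 2 rose at 1 h. The number was 10 at 3 h and 12 at 6 h, then 7 (12 h) and 8 (24 h), with a median of 0.989 at 3 h and 0.609 at 24 h. Of all genes tested, 0.26%, 9.04%, 16.9%, 5.96% and 18% rose at these times. At 3 h BIRC3 rose by 2.22, TNFAIP3 by 1.57, NFKBIA by 1.39 and NFKBIE by 1.29 (adjusted p from 1.51e-11 to 1.48e-09). BIRC3 was higher than at 0 h by 1.32 at 12 h (7.57e-08) and by 2.04 at 24 h (2.99e-11). NFKBIA and NFKBIE were higher by 0.788 (6.32e-08) and 0.592 (3.66e-06) at 24 h. Any link of these genes to CD274 was not tested.

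Of 17 genes of interferon, JAK and STAT input, 2 rose and 2 fell at 3 h, 6 rose and 3 fell at 6 h, and 9 rose and 1 fell at 24 h. The shares of all genes tested that rose and fell were 9.04% and 8.71% (3 h), 16.9% and 13.2% (6 h), and 18% and 17.1% (24 h). At 3 h IFNGR2, a chain of the interferon-gamma receptor, rose (0.54, adjusted p 6.56e-06), as did IRF1, a transcription factor of that pathway (0.31, 0.00329). SOCS3, a feedback inhibitor of JAK signalling, fell by 0.37 (0.00308) and IRF2 fell by 0.36 (0.00915). At 6 h STAT3 rose (0.55, adjusted p 7.8e-06) and SOCS3 fell by 0.62 (1.8e-05), and at 24 h STAT3 (0.53, 1.14e-05) and JAK1 (0.36, 0.000521) were higher. The list's median was -0.0489 at 3 h and 0.206 at 24 h.

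All 15 listed regulators of the PD-L1 protein were tested, and 1 rose and 2 fell at 3 h, 2 rose and 4 fell at 6 h, and 6 rose and 1 fell at 24 h. Over all genes tested the higher and lower shares were 9.04% and 8.71% (3 h), 16.9% and 13.2% (6 h), and 18% and 17.1% (24 h). HIP1R, which targets PD-L1 to lysosomes, rose at 3 h (0.36, adjusted p 0.00313). CMTM6, which keeps PD-L1 at the surface, rose at 12 h (0.305, 0.0183). B3GNT3 fell by 1.31 at 6 h (0.00164).

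Among 24 other checkpoint and costimulatory ligands, 13 were tested. The classical B7 genes CD80 and CD86 had 0 counts in every library and VTCN1, CD70 and BTN1A1 at most 1. ICOSLG, a costimulatory ligand, rose at 6 h (0.74, adjusted p 0.00154), and TNFSF9, the ligand of 4-1BB, fell by 0.72 at 12 h (0.00283) and by 0.97 at 24 h (8.62e-05). BTN3A1 fell by 0.38 at 3 h (adjusted p 0.00322) and was higher at 12 h (0.30, 0.0132) and 24 h (0.72, 1.86e-06). In all 2 rose and 4 fell at 6 h, where 16.9% and 13.2% of all genes tested did, and 5 rose and 2 fell at 24 h, where 18% and 17.1% did.

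Of 14 listed genes of receptors for the members or for adenosine, 5 were tested: SIRPA (62 to 139 counts per library), SELPLG (29 to 73), CD226 (2 to 14), ADORA2A (51 to 131) and ADORA2B (1254 to 2161). Among the others PDCD1 had at most 1 count, TIGIT 0, CD96 and PVRIG at most 2, and HAVCR2 at most 3. Of those tested, SELPLG fell by 0.58 at 3 h (adjusted p 0.0304) and by 0.61 at 6 h (0.0129). The levels are of RNA and do not give the amount of protein at the cell surface.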

How the data were processed

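Libraries were made from RNA of whole cultures with a stranded mRNA kit for paired-end reads, per the labels' protocols. The authors deposited expected counts per gene, estimated by RSEM per the file name and not scaled. The submitters' processing notes name cutadapt 1.18, STAR 2.7.0f and hg38; the annotation release and strand setting are not given in the sources used here. Of all values 10.8% were not whole (beyond 0.005), and 58597 of 58870 entries matched GENCODE 29.

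Expected counts were rounded. Genes passing filterByExpr (15365) were fitted in edgeR 4.0.16 (R 4.3.3) with TMM scaling and 1 mean per time over all 17 libraries by robust quasi-likelihood, and p-values were adjusted by Benjamini-Hochberg over all genes. A call is an adjusted p below 0.05. CPM use TMM-scaled totals, and log2 CPM a prior count of 2. The fit was tested on simulated data. Nothing in the labels says that replicates were separate cultures, so p-values measure the spread between these libraries.

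Alternatives were RLE factors, library size alone, no filter, DESeq2 1.42.0, limma-voom (limma 3.58.1), only the groups compared, a replicate block, each library left out, averaging of close pairs, and per-library lowess trends (span 0.3) on transcript length and GC content taken out as offsets, which covered 99.8% of genes. The trend with a replicate block was added after seeing the data. Members and lists were chosen with earlier results of these data known. The members were named in every comparison, up to 4 genes of a list by lowest adjusted p, and the 3 most correlated genes among those averaging 3 or more on the log2 CPM scale.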

Additional observations from a re-analysis of the deposited data

Results flagged for a closer look

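In 8 instances the effect of a member against 0 h differed between neighbouring times by the direct test of those times in edgeR. For CD274 the effect was larger at 3 h than at 1 h by 0.562 (adjusted p 0.000683), changed by -0.277 from 3 h to 6 h (0.00832) and by -0.451 from 6 h to 12 h (0.000642). From 6 h to 12 h PDCD1LG2 changed by -0.69 (adjusted p 0.00431) and PVR by -0.226 (0.00417). Both had opposite signs against 0 h at these times, but neither was called at 12 h (-0.162, adjusted p 0.56, and -0.0395, 0.663). From 3 h to 6 h NT5E changed by 0.5 (adjusted p 0.000119), from -0.388 to 0.113 against 0 h, and CD276 by 0.274 (0.0151). VSIR changed by 0.624 from 12 h to 24 h (adjusted p 0.00337), from -0.429 to 0.195 against 0 h.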

How the results depend on the processing

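Of 20 calls of a single member, 11 were made under every one of 27 alternatives: CD274 at 3 h, at 6 h and in the steps from 1 h to 3 h and 6 h to 12 h, VSIR at 3 h, 6 h and from 12 h to 24 h, NT5E at 3 h and from 3 h to 6 h, and PDCD1LG2 and PVR from 6 h to 12 h. With library size alone, 0 members rose at 1 h, 1 rose and 4 fell at 3 h, 2 rose at 12 h, 4 rose at 24 h, 1 fell from 1 h to 3 h, 0 fell from 3 h to 6 h, 1 rose from 6 h to 12 h and 2 rose from 12 h to 24 h. In either direction it called 41, 3066, 1841 and 5602 of all 15365 genes at 1, 3, 12 and 24 h. For the same steps it called 782, 6744, 2972 and 1897 of them. Its median log2 fold change over all genes was -0.0735 at 3 h and 0.072 at 24 h. Without a filter 1 rose and 3 fell at 3 h, 2 rose at 6 h and 1 fell from 1 h to 3 h. Of the 29899 genes then tested, 3159, 4687 and 1219 were called in these comparisons, in either direction. With only the groups compared, 0 rose at 1 h, 1 at 3 h and 0 at 24 h. All genes called in either direction were 44 of 14711 at 1 h, 2544 of 14323 at 3 h and 5233 of 14394 at 24 h. DESeq2 called 2 higher from 12 h to 24 h, and 2097 of 12385 genes in either direction. With replicates 2 and 3 averaged at 6 h and 24 h, pairs closer to each other than other replicates (chi-square per gene 1.57 and 1.67, others 3.44 to 12.3), 1 rose at 6 h, 0 at 24 h and 1 from 3 h to 6 h. With this averaging 2532, 3464 and 5057 of 15292 genes were called in these comparisons, in either direction. Length and GC correction, alone or with a replicate block, gave 4 higher and 2 lower at 6 h, 2 higher at 12 h and 2 at 24 h, 2 lower from 1 h to 3 h, 2 lower from 3 h to 6 h and 2 higher from 6 h to 12 h; at 3 h it gave 2 higher alone and 3 with the block. The correction alone called 3863, 4479, 2427 and 5141 of all 15365 genes at 3, 6, 12 and 24 h, in either direction. For the steps from 1 h to 3 h, 3 h to 6 h and 6 h to 12 h it called 1745, 6195 and 4079. With the block 4004 were called at 3 h. The cause of the changes in member counts was not tested.

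CD47 changed sign under the length and GC correction, to -0.0724 at 24 h (-0.0738 with the block) and to -0.266 from 3 h to 6 h (-0.266 with the block), and from 3 h to 6 h also without the 3 h replicate 2 (-0.0203; up to 0.0569, without the 3 h replicate 3). The replicate block alone gave 2 members higher at 24 h, with CD274 added (0.213, adjusted p 0.0431). It called 5459 of all 15365 genes at that time, in either direction. Of 40 correlations of same-numbered deviations from the time means, 32 were at or under 0.1 (-0.199 to 0.211). Differently numbered libraries were not compared in this way, so whether replicate numbers pair the libraries was not settled.

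With each library left out in turn, 7 to 9 members were called over all times. Of all genes, 15302 to 15853 were then tested and 8976 to 9886 called. The members that rose numbered 0 to 1 at 1 h, 1 to 3 at 3 h, 2 to 3 at 6 h, 0 to 1 at 12 h and 0 to 2 at 24 h, and those that fell 0 to 0, 2 to 3, 1 to 1, 0 to 1 and 0 to 1. All genes called at these times, in either direction, numbered 27 to 48, 1412 to 3029, 2663 to 4970, 724 to 2147 and 3444 to 5798. Between neighbouring times, 1 to 1 members rose and 0 to 1 fell from 1 h to 3 h, 1 to 3 and 1 to 1 from 3 h to 6 h, 0 to 1 and 3 to 3 from 6 h to 12 h, and 1 to 2 and 0 to 1 from 12 h to 24 h. All genes called in these steps numbered 271 to 975, 5023 to 6846, 1803 to 3476 and 583 to 2789. The scarcest member, LGALS9, had 26 to 71 counts per library.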
